A study of Mus musculus with 6 samples.

Results

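The genes of the eukaryotic translation initiation factors were examined for binding of induced E2F1 in mouse NIH/3T3 fibroblasts. They were chosen by name, as the protein-coding RefSeq genes whose symbol begins with Eif followed by a digit from 1 to 6. This gave 56 of the 21883 protein-coding genes on the assembled nuclear chromosomes. The rule is by symbol only, so it also takes in kinases and binding proteins that act on initiation factors, and a few near-identical copies. NIH/3T3 is an established line of mouse embryonic fibroblasts. Its cells carried either a stably integrated construct for doxycycline-inducible E2F1 or the matching empty vector (EV). Both groups were starved of serum for 48 hours and then given doxycycline for 12 hours, so the antibiotic and the starvation are common to all libraries. Chromatin immunoprecipitation with sequencing (ChIP-seq) of E2F1 was done in 2 libraries per group, in a study of how resting cells re-enter the cycle. Whether the lines were single clones, and whether replicates came from separate cultures, is not given in the sources used here, so the spread between replicates may be technical. Peak lists of a transcription factor measure no expression, and the cell type was not checked against markers.

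Translation initiation brings the small ribosomal subunit, the initiator tRNA and the mRNA together at the start codon. eIF4F binds the cap and unwinds the leader, eIF3 holds the small subunit, eIF2 delivers the initiator tRNA as a GTP-bound complex, and eIF2B recharges eIF2 with GTP. eIF1, eIF1A and eIF5 control recognition of the start codon, and eIF5B joins the large subunit. Kinases that phosphorylate eIF2α and the 4E-binding proteins restrain the process. Resting fibroblasts make little protein and raise initiation when they return to growth. E2F1 is a transcription factor of the G1/S transition that binds promoters, best known for genes of DNA replication.

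The peak lists held 7836 and 8027 peaks in E2F1 replicates 1 and 2, and 70 and 358 in EV replicates 1 and 2. Every listed peak had a −log10 p above 10, so a gene without a listed peak may still have weaker signal. A gene was counted when a peak touched it or the 1000 bp on either side.

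Initiation factor genes carried E2F1 peaks often. In E2F1 replicate 1 a peak was listed at 41 of the 56 genes (73.2%), against 36.9% of all protein-coding genes. In E2F1 replicate 2 it was listed at 45 (80.4%), against 38.2% of all. Both lists had one at 38 genes (67.9%, Wilson 95% interval 54.8 to 78.6), against 34.4% of all. A further 10 had a peak in 1 E2F1 list only, and 8 had none in either. Neither EV list had a peak at any of the 56, where 0.0366% and 0.407% of all protein-coding genes had one. The nearest EV peak to any of them lay 59625 bp from Eif4enif1, in EV replicate 2, with a fold enrichment of 2.43.

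The number of initiation factor genes with a peak was thus 43 ± 2.83 (SD, n = 2) with induced E2F1 and 0 with EV. An exact two-sided permutation test over the 4 libraries gave p = 0.333, the smallest value that this design allows, so it cannot pass 0.05. The EV lists were short as a whole, with a peak at 8 and 89 of all protein-coding genes.

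Most initiation factor genes have promoters rich in CpG, a property that by itself went with a high share of peaks. RefSeq promoter windows, from 250 bases before to 50 after an annotated start, were matched to 44 of the 56 genes. A window was called CpG-rich when its GC content was at least 50% and its CpG count at least 0.6 of that expected from its bases. Among all protein-coding genes with a CpG-rich window, 61.8% had a peak in both E2F1 lists, and among those without, 10.3%. The initiation factor genes with a CpG-rich window had one at 29 of 37 (78.4%, 62.8 to 88.6). Those whose windows were not CpG-rich had one at 3 of 7 (42.9%, 15.8 to 74.95), namely Eif2b5, Eif3b and Eif3f. The 12 genes without a matched window had one at 6 (50%, 25.4 to 74.6). Compared with all CpG-rich genes, the excess was therefore 78.4% to 61.8%, much smaller than 67.9% to 34.4%. The latter shares also take in genes without a window, so the sets compared differ in more than CpG content. No test was made of either difference.

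Among the stronger peaks the excess was smaller. With peaks at or above the median score of their list, 15 genes (26.8%, 17.0 to 39.6) had one in both E2F1 lists, against 17.1% of all protein-coding genes. Among genes with a CpG-rich window the same threshold gave 13 of 37 (35.1%, 21.8 to 51.2) against 32.1%, a share near the background. Among those without, it gave 1 of 7 against 3.74%.

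**Figure D1:**
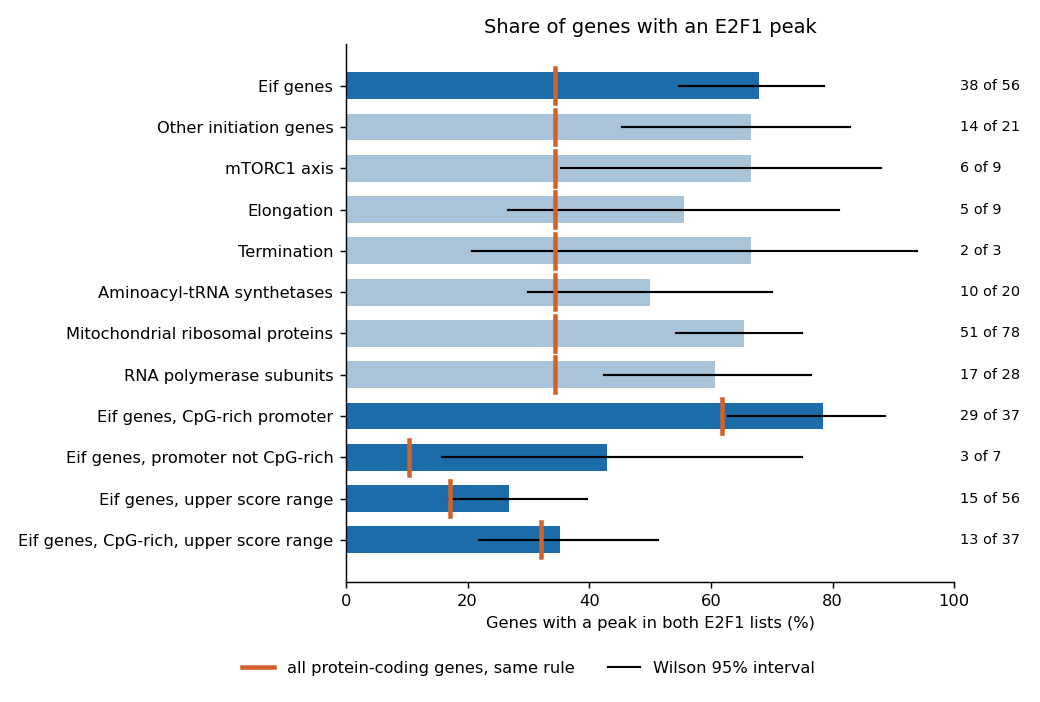
Bars give the percentage of genes in each list with a peak in both E2F1 lists, with the count at the right. Black lines are Wilson 95% intervals and orange marks give all protein-coding genes under the same rule. The initiation factor genes stand at 67.9% over a mark at 34.4%, and at 35.1% beside a mark at 32.1% once both CpG-rich promoters and the upper score range are required.

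Fold enrichment, the authors' value for a peak, is the read pileup at the summit over the local background. Folds of the lists need not be on 1 scale, so ranks within a list are given for some genes, and lists are summarised by percentile, the share of a list's peaks with a lower fold. For the 38 genes with a peak in both E2F1 lists, folds had a median of 9.37 (range 4.36 to 33.2) in replicate 1 and of 9.73 (range 4.11 to 32.8) in replicate 2. Coordinates are those of the peak lists on mm10, and where 2 values stand together the replicate 1 value comes first. The median over all protein-coding genes with a peak in both lists was 10.2 in replicate 1 and 13.1 in replicate 2. Averaged over both lists, the median percentile was 50.2 for the initiation factor genes and 56.1 for all such genes. By list it was 51.3 against 57.1 in replicate 1, and 41.2 against 57.6 in replicate 2. The peaks were thus of middling height within their lists, with medians below those of all genes with a peak in both.

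The cap-binding complex eIF4F and its helpers held the gene with the highest mean percentile of the family, 91.6. Eif4a2, a DEAD-box helicase that unwinds the leader, reached a fold of 30.3 in the first E2F1 list (rank 258, at chr16:23106913-23108553) and 26.5 in the other (rank 1086, at chr16:23107118-23108556). Its pileups were 158 and 116 reads. Its close relative Eif4a1, which supplies most of the helicase in growing cells, was near the low end by fold, with 4.74 and 7.99. The mean percentile of Eif4a1 was 17.3 by fold, 30.2 by score and 44.3 by pileup. Eif4g1, the scaffold that joins cap, helicase and eIF3, had folds of 15.5 (chr16:20672041-20674031) and 23.8 (chr16:20672183-20673956). Eif4h, an RNA-binding helper of the helicase, had folds of 14.8 (chr5:134637537-134640032) and 21.8 (chr5:134638670-134639769). The cap-binding protein itself, Eif4e, stood in the middle, with folds of 8.97 and 10.5. Eif4b, another helper of the helicase, had 11.3 and 12.2, and the cap-binding relative Eif4e2 had 16.5 and 14.1. Of the 11 genes in this group 8 had a peak in both lists (72.7%, 43.4 to 90.3), against 34.4% of all protein-coding genes. The median score was passed in both by 5 of the 11 (45.5%, 21.3 to 72.0), against 17.1% of all. The scaffold relative Eif4g3 was listed in replicate 1 only (fold 6.35). Eif4g2, a scaffold relative that does not bind eIF4E, had 8.34 and 7.79. Eif4e1b was listed in replicate 2 only (fold 5.69), and that summit lay 1059 bp beyond the gene and 416 bp from a boundary of Tspan17. Eif4e3 had no peak.

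Genes for start codon recognition and subunit joining came next. All 6 had a peak in replicate 2, against 38.2% of all protein-coding genes. In both lists 5 of them had one (83.3%, 43.6 to 97.0), against 34.4% of all. Eif1b, a relative of eIF1, had folds of 20.3 (chr9:120492018-120493242) and 17.7 (chr9:120491870-120493203), with summits at the same base, 98 bp upstream of its start. Eif5, the GTPase-activating protein of eIF2, had folds of 14.7 and 18.1. Eif1, which guards the choice of start codon, was high in replicate 1 (fold 18.02, rank 1171) and low in replicate 2 (fold 7.54, rank 5864). Eif5b had folds of 8.32 and 8.90, and the X-linked Eif1ax had 6.42 and 6.30 on pileups of 18 and 17 reads. Eif1a was listed in replicate 2 only, with a fold of 4.91.

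In eIF2, 2 of 4 genes had a peak in both lists (50%, 15.0 to 85.0), against 34.4% of all protein-coding genes. The α subunit gene Eif2s1 led with folds of 18.8 and 15.3, and the X-linked γ subunit gene Eif2s3x had 14.0 and 13.3. The β subunit gene Eif2s2 was listed in replicate 2 only, with a fold of 7.52, and the Y-linked copy Eif2s3y had no peak. Folds were low for the guanine nucleotide exchange factor eIF2B. Its 5 subunit genes all had a peak in replicate 2, against 38.2% of all protein-coding genes. In both lists 3 of them had one (60%, 23.1 to 88.2), against 34.4% of all. None passed the median score in both, against 17.1% of all. Eif2b2 was highest with folds of 9.46 and 11.1, followed by Eif2b1 with 5.37 and 8.42. Eif2b5, among the 3 lowest of the family, had 4.58 and 5.52 on pileups of 23 and 17 reads. Eif2b3 and Eif2b4 were listed in replicate 2 only, with folds of 4.56 and 6.73.

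The subunits of eIF3, the largest initiation factor, were uneven. Of 14 genes, 9 had a peak in both lists (64.3%, 38.8 to 83.7), against 34.4% of all protein-coding genes. Eif3h reached the highest fold of the family in replicate 1, 33.2 at rank 185 (chr15:51864950-51865527), yet had 13.1 at rank 3416 in replicate 2 (chr15:51865060-51865527). The opposite held for Eif3a, the core scaffold subunit, with 9.28 and 23.8, for Eif3j1 with 8.35 and 20.3, and for the core subunit gene Eif3b with 7.54 and 15.0. Eif3d, whose product can itself bind the cap, had 16.5 and 8.95. The other 4 subunit genes with a peak in both lists, Eif3e, Eif3f, Eif3i and Eif3m, had folds between 5.67 and 11.9. Eif3c (fold 5.15) and Eif3l (fold 5.72) were listed in replicate 1 only. Eif3g, Eif3k and Eif3j2 had none.

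Of the 8 regulator genes, 4 had a peak in both lists (50%, 21.5 to 78.5), against 34.4% of all protein-coding genes. The kinases among them differed from one another. Eif2ak3, which encodes the stress kinase PERK of the endoplasmic reticulum, had a fold of 12.4 at rank 2464 (chr6:70844531-70845112) and one of 32.8 at rank 686 (chr6:70844318-70845250), the highest of the family in replicate 2. Eif2ak2, the double-stranded RNA kinase PKR, was listed in replicate 2 only with a fold of 10.7, as was the amino acid sensor Eif2ak4 (GCN2) with 7.15. Eif2ak1, the heme-regulated kinase, had no peak. The genes of the 4E-binding proteins, which sequester eIF4E when dephosphorylated, had low folds or no peak. Eif4ebp2 had the lowest mean fold percentile of the family, 1.60, with folds of 4.36 (chr10:61452211-61452816) and 4.11 (chr10:61451968-61452833). Its pileups were 37 and 27 reads over backgrounds of 7.71 and 5.81. By score its mean percentile was 8.49 and by pileup 27.3, so its last place holds for fold only. Eif4ebp1 had folds of 4.88 and 6.01, and Eif4ebp3 had no peak. Eif4enif1, which carries eIF4E into the nucleus, had 13.8 and 8.80, on pileups of 173 and 121 reads over backgrounds of 11.6 and 12.9. Its mean percentile was 54.9 by fold, 83.9 by score and 95.4 by pileup.

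Of the remaining 8 genes, 7 had a peak in both lists (87.5%, 52.9 to 97.8), against 34.4% of all protein-coding genes. Eif1ad, a gene with an eIF1A-like domain, was second in the family, with folds of 25.3 (chr19:5366148-5367528) and 26.3 (chr19:5366147-5367474) and pileups of 157 and 128 reads. Eif4a3, the helicase of the exon junction complex, had 14.2 and 14.6. Eif2d, a non-canonical initiation factor, had 10.6 and 8.63, Eif6, which keeps the ribosomal subunits apart, had 10.6 and 7.57, and Eif2a had 4.62 and 7.99. Both genes of eIF5A, a factor that helps elongation through proline stretches, had low folds, 4.84 and 5.21 for Eif5a and 6.93 and 4.81 for Eif5a2. The mean percentile of Eif5a was 5.70 by fold, 15.3 by score and 27.7 by pileup. Eif4a3l1 had no peak. Eif3j2, Eif2s3y and Eif4a3l1 have close relatives among the other members. How reads that map to more than 1 place were treated is not given in the sources used here, so their lack of a peak is uncertain.

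**Figure D2:**
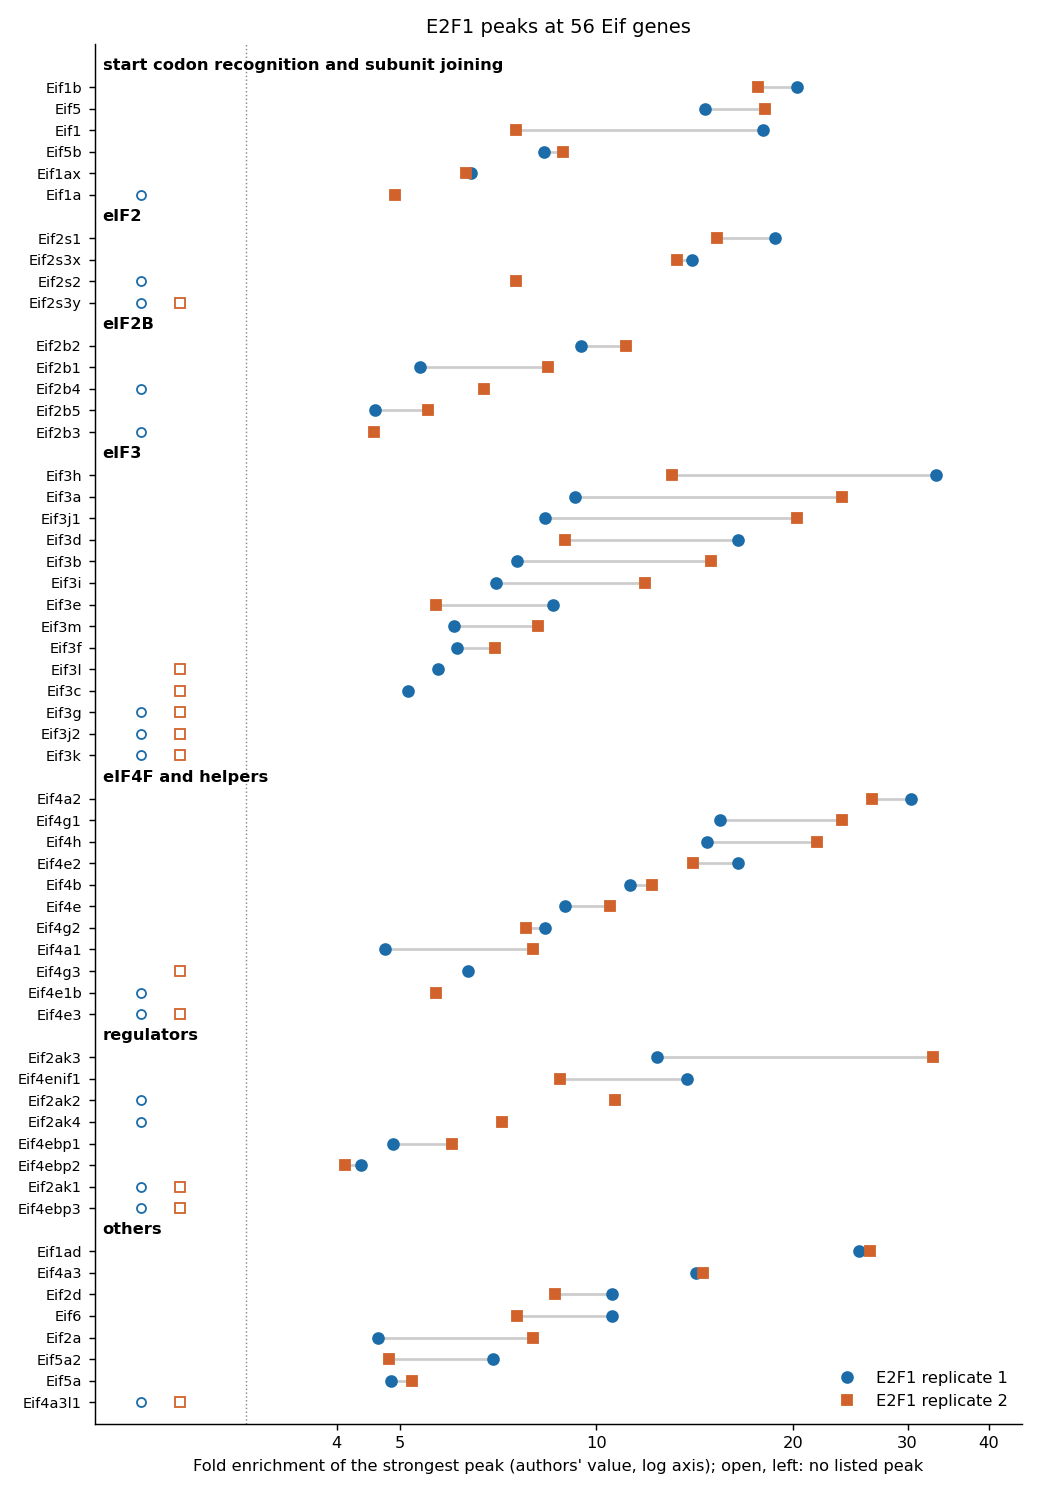
Each row is 1 of the 56 genes, grouped by role. Filled symbols give the fold enrichment of its strongest peak in E2F1 replicate 1 (blue circles) and 2 (orange squares) on a log axis, and open symbols left of the dotted line mark a list without a peak. Eif4a2 and Eif1ad were above 25 in both lists, whereas Eif3h, Eif1, Eif2ak3, Eif3a and Eif3j1 differed by more than 2-fold between them.

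The 10 genes found in 1 list only had weak peaks beside all peaks of the lists. Not all were weaker than the 38 genes found in both. Eif2ak2 had a fold percentile of 46.7 in replicate 2, where the median of the 38 was 41.2. For the 10 genes −log10 p ran from 10.5 to 26.6 with a median of 14.4. The medians of all peaks were 32.6 and 36.6 in the E2F1 lists. The pileups of the 10 genes were 18 to 37 reads, and none reached the median fold of its list. They made up 20.8% of the 48 genes with any E2F1 peak, and the same share over all protein-coding genes was 15.4%. Replicate 1 alone listed 3 of them, and replicate 2 alone 7. Closest to the limit of the lists were Eif2b3 at a −log10 p of 10.5 in replicate 2, and Eif2b5, which both lists held at 10.5 and 10.3.

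Folds, pileups and backgrounds of the same gene all differed between the E2F1 lists, the pileups least. The pileup and the local background behind a peak were solved from its fold and −log10 p. Over the 38 genes, Spearman's rho between the lists was 0.69 for fold, 0.85 for pileup and 0.29 for background. Over all protein-coding genes with solved peaks in both lists, rho was 0.69, 0.86 and 0.29. These are descriptions across genes, which share both libraries. The lists had nearly the same lowest background, 1.85 and 1.86 reads. Depth itself was not measured.

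The folds of 5 of the 38 initiation factor genes differed by more than 2-fold, and these are given in full because of that difference. How many of all protein-coding genes differed as much was not counted. The log2 ratio of folds had an SD of 0.64 over the 38 genes. Over all protein-coding genes with a peak in both lists its SD was 0.63, so such differences are not particular to this family. At Eif3h the pileups were 104 and 88 reads, and the background was 2.16 in replicate 1 and 5.81 in replicate 2. At Eif1 the pileups were 69 and 62 reads over backgrounds of 2.89 and 7.36. At Eif2ak3, the pileups were 102 and 108 reads over backgrounds of 7.33 and 2.32. Eif3a had pileups of 87 and 104 reads over 8.48 and 3.42, and Eif3j1 had 46 and 57 over 4.63 and 1.86. In these 5 genes the ratio of pileups stayed between 0.848 and 1.23, and in all 5 the background moved more than the pileup. Over all 38 genes the ratio of pileups ran from 0.535 at Eif4e2 to 1.71 at Eif2b1, and that of backgrounds from 0.399 to 2.15. Across the 38 genes the background moved more in 22 (57.9%), and across all protein-coding genes with solved peaks in both lists in 65.0%. Which reads gave the local background is not given in the sources used here.

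**Figure D3:**
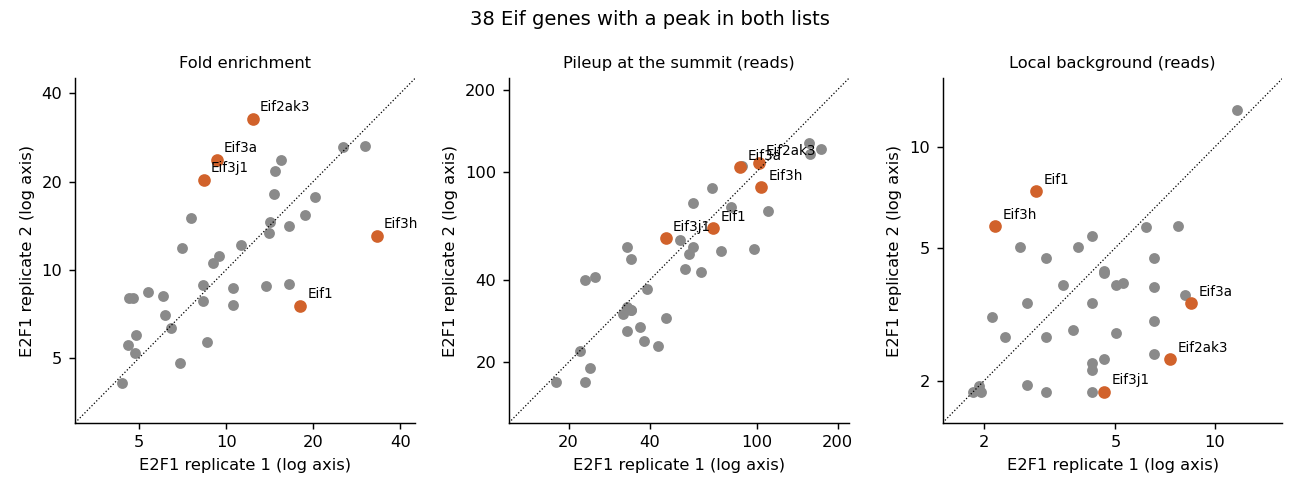
Each point is 1 of the 38 initiation factor genes with a peak in both E2F1 lists, replicate 1 on the horizontal and replicate 2 on the vertical log axis, for fold, pileup at the summit and local background in reads. The 5 labelled genes lie far from the dotted line of equality for fold and background, and near it for pileup.

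The peaks sat at the 5′ ends of the genes. For the 32 genes with a promoter window and a peak in both lists, the median summit lay 164.5 bp downstream of the nearest annotated start in replicate 1 and 88.5 bp downstream in replicate 2. All such protein-coding genes gave medians of 130 and 57 bp. In each list 29 of the 32 summits (90.6%) were within 500 bp of a start, against 84.7% and 85.1% over all genes. Downstream summits numbered 25 of 32 (78.1%) in replicate 1 and 24 of 32 (75%) in replicate 2, beside 69.5% and 61.8% over all genes. The peaks of both lists overlapped at all 38 genes, with a median of 54 bp between their summits and 57 bp over all genes. When peaks had to lie within 1000 bp of a gene boundary, all 38 genes kept them, and 30.9% of all protein-coding genes had one. A peak of both lists covered part of a promoter window at 31 of 44 genes (70.5%), also against 30.9% of all, and at 28 of 37 CpG-rich ones (75.7%) against 58.1%.

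**Figure D4:**
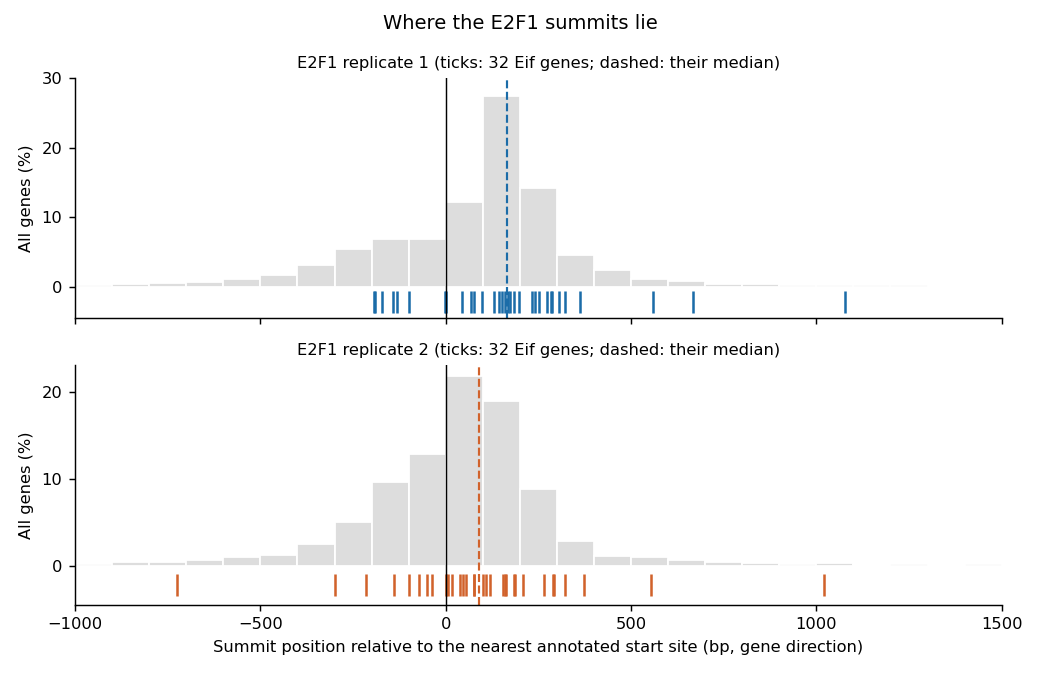
Grey bars give the percentage of all protein-coding genes with a peak in both E2F1 lists whose summit falls in each 100 bp step around the nearest annotated start, counted in the direction of the gene. Coloured ticks are the 32 initiation factor genes, and dashed lines their medians of 164.5 and 88.5 bp. Most ticks fall from the start to 400 bp downstream, where the tallest grey bar of each list also lies. In replicate 2 the 100 bp step just upstream of the start holds 12.9% of all genes.

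Some genes had summits over 1000 bp from both annotated ends, and for 3 of these another start site was near. Eif4e has 2 annotated starts. No peak of either list covered the window of the upstream one, which is not CpG-rich. The summits lay 361 and 154 bp downstream of the inner one at position 138527268 of chromosome 3. At Eif5a, with 6 annotated starts, the summits lay 1078 and 920 bp from the nearest gene boundary, so only replicate 1 passed 1000 bp. They were 67 and 47 bp downstream of their nearest starts, which differed between the lists. At Eif4g3 the summit was 250 bp downstream of an inner start and 1927 bp inside the gene from its 5′ boundary. At Eif4a1, with 1 window, the summits lay inside the gene, 1078 and 1021 bp downstream of the start.

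Promoter sequence was then read for the short words that E2F proteins are known to prefer. The words were TTTCCCGC, TTTCGCGC, TTTGCCGC and TTTGGCGC, and the same words without their first letter, each on both strands. The longer words were found at 2 of 44 initiation factor genes (4.55%), and at 3.29% of all 17491 protein-coding genes with a window. Both of those genes, Eif2d and Eif4enif1, had a peak in both E2F1 lists. Over all protein-coding genes, 381 of the 575 with a longer word had one. The 7-letter words were found at 8 of 44 (18.2%) against 13.7% of all. All 8 had a peak in both lists, as had 1486 of the 2404 protein-coding genes with a 7-letter word. The 8 made up 25% of the 32 initiation factor genes with a window and a peak in both lists. Over all protein-coding genes with a peak in both lists the 7-letter words were found at 24.1%, a share near that of the initiation factor genes. Most summits were downstream of the window, which holds the summit of only 10 of the 44 genes in replicate 1 and 11 in replicate 2. Words beyond its end were not searched.

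At the 8 genes with a word, the distance from word to summit varied. Eif4b had its word at −161 bp from the start and its summits at 668 and 555 bp. Eif4ebp2 had its word at −108 bp and its summits at 242 and 289 bp, and Eif5b had its word at −190 bp and its summits at 251 and −51 bp. Eif4enif1 had its word at −235 bp from one of its starts, with the summits 470 and 38 bp downstream of the same start. Eif5a had words in the windows of 2 of its starts, the nearest one at −49 bp from a start with summits at 67 and −91 bp. The following 3 windows are shown because the word lay near the summits of both lists, a choice made after the positions were seen. They come from RefSeq on GRCm38.p6, in the direction of the gene, with 7- or 8-letter E2F words in capitals. Eif4a3 (chr11:119299994-119300293, minus strand) has a word beginning 4 bp after the start, and its summits lay at 2 and −36 bp from the start. Eif2d (chr1:131152957-131153256, plus strand) has an 8-letter word beginning 38 bp after the start, with summits 99 and 76 bp downstream. Eif2s3x (chrX:94212602-94212901, minus strand) has a word beginning at −68 bp from the start, with summits at −132 and −139 bp.
Eif4a3: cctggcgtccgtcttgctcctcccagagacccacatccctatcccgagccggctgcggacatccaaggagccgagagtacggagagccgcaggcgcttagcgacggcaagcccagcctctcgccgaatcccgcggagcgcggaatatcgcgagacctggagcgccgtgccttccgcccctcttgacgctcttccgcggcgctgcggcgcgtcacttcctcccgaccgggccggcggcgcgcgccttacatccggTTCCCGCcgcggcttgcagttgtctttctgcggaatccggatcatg
Eif2d: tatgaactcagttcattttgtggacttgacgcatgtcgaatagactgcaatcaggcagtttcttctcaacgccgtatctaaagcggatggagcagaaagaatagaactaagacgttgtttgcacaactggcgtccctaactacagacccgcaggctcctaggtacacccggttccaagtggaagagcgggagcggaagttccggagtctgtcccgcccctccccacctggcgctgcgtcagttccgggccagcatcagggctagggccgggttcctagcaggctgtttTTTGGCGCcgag
Eif2s3x: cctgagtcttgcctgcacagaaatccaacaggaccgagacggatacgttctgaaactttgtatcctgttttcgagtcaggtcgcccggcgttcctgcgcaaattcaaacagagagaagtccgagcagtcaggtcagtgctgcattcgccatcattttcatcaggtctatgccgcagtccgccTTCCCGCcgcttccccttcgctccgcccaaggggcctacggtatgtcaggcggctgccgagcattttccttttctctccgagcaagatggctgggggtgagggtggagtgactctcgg

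Eif4a2, the gene with the highest mean percentile, had no such word in its window (chr16:23107218-23107517, plus strand), although its summits were only 76 and 16 bp downstream of the start. The window has a GC content of 67.7% and 1.05 times the expected number of CpGs. It is shown for comparison and holds no capitals.
Eif4a2: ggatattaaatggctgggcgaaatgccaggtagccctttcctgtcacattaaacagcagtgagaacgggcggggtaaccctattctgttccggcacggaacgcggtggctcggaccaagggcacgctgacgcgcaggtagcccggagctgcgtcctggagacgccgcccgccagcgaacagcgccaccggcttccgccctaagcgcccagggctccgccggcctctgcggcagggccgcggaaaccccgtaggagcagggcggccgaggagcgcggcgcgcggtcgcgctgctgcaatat

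The windows were also read for the E-box CACGTG, the word of Myc and related factors. It was found at 10 of 44 (22.7%, 12.8 to 37.0) against 8.91% of all protein-coding genes, and at 8 of 37 CpG-rich ones (21.6%, 11.4 to 37.2) against 13.1%. No test was made. Of the 32 genes with a window and a peak in both E2F1 lists it was found at 9 (28.1%, 15.6 to 45.4), against 12.5% of all protein-coding genes with such a peak. These were Eif1b, Eif3a, Eif3f, Eif4a1, Eif4e, Eif4g1, Eif4h, Eif5a and Eif5a2. The other gene with the word, Eif3k, had no peak. Over all protein-coding genes, 769 of the 1559 with the E-box had a peak in both lists. A CCAAT word was found at 16 of 44 (36.4%) against 42.3%. The inner window of Eif4e (chr3:138527018-138527317, plus strand), the one covered by its peak, has 2 E-boxes, beginning at −228 and −64 bp from the start and given in capitals.
Eif4e: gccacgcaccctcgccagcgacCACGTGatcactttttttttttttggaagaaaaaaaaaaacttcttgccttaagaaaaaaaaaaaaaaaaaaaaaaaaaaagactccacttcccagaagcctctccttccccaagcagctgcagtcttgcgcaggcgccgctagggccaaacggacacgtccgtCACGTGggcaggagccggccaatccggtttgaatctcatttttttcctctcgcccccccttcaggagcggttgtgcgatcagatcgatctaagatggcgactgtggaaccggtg

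A peak can lie at 2 genes at once. At 8 of the 38 genes (21.1%, 11.1 to 36.3) the peak came within 1000 bp of a boundary of another protein-coding gene, against 29.8% over all genes with a peak in both lists. These pairs were Eif1ad with Banf1, Eif2a with Serp1, Eif2b1 with Gtf2h3, Eif2s1 with Atp6v1d, Eif3i with Tmem234, Eif4a1 with Senp3, Eif4enif1 with Sfi1 and Gm51877, and Eif5b with Txndc9. Eif2b1 and Gtf2h3 are 17 bp apart, and Eif1ad overlaps Banf1, so these peaks cannot be given to 1 gene of the pair. At Eif3i the summits were 129 and 214 bp from Tmem234 and 150 and 235 bp from Eif3i itself. In replicate 1 the summit at Eif4enif1 was nearer to Gm51877 (395 bp) than to Eif4enif1 (480 bp). The other 30 genes had no such neighbour.

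Other genes of protein synthesis were counted in the same way. Of 21 further initiation genes, 14 (66.7%, 45.4 to 82.8) had a peak in both E2F1 lists. The tallest by percentile was at Pabpc1, the poly(A)-binding protein that bridges the mRNA ends, with folds of 20.3 and 56.9. Atf4, the transcription factor translated when eIF2α is phosphorylated, had 17.2 and 26.9. The mTORC1 axis, which controls the 4E-binding proteins, had one at 6 of 9 genes (66.7%, 35.4 to 87.9). The kinase gene Mtor had folds of 32.4 and 38.1, the highest mean percentile of these lists (95.8). Elongation factors had a peak at 5 of 9 genes (55.6%, 26.7 to 81.1), with Eef1d at 22.5 and 22.8, and termination factors at 2 of 3. Cytosolic aminoacyl-tRNA synthetases had one at 10 of 20 (50%, 29.9 to 70.1), with Vars at 17.5 and 42.3. All of these shares lay above the 34.4% of all protein-coding genes, though the intervals of the elongation, termination and synthetase lists include it. No gene of these lists had an EV peak, where 0.0366% and 0.407% of all protein-coding genes had one.

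The same count gave 51 of 78 mitochondrial ribosomal protein genes (65.4%, 54.3 to 74.99) and 17 of 28 RNA polymerase subunit genes (60.7%, 42.4 to 76.4). With the upper score range the counts were 18 (23.1%, 15.1 to 33.6) and 5 (17.9%, 7.88 to 35.6), against 17.1% of all protein-coding genes. Both intervals for the full lists include the 67.9% of the initiation factor genes, and the differences were not tested. In CpG-rich windows the shares were 69.1% and 76.5%, beside 78.4% for initiation factor genes and 61.8% for all genes with such windows. The intervals of both lists (55.97 to 79.7 and 52.7 to 90.4) include the 61.8% and also the 78.4%. These differences were not tested either.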

How the data were processed

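ChIP-seq peak lists of 4 libraries were used, 2 with induced E2F1 and 2 with EV. The 2 input samples that the labels name were not analysed here. FastQC, Trimmomatic, Bowtie2, MACS2 and ChIPseeker and the build mm10 are named, without versions or roles, per the submitters' processing notes. The control and the p filter of each list are not given in the sources used here. Each deposited peak carries its fold enrichment (a ratio, pileup over local background) with p and q as −log10 values. The deposited score equals 10 times the −log10 q, rounded down, in 99.9% of peaks.

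Genes and promoter windows came from RefSeq tables of GRCm38.p6, the assembly of mm10. Peaks were joined to genes by an overlap of at least 1 bp with the gene extended by 1000 bp on each side, in Python 3.11.15 with pandas 2.3.3 and scipy 1.17.1. Where a gene had several peaks in a list, the one with the highest fold was used. Pileup and background were solved from fold, as pileup plus 1 over background plus 1, and a Poisson p. A whole pileup within 5% of a step was found for 99.4% and 98.4% of E2F1 peaks and for 87.1% and 99.2% of EV peaks, and for every peak of the 38 genes. Overlap counting and this solution were tested on simulated data. No read totals were used, so depth was not measured. The lowest background was 1.85 and 1.86 reads in the E2F1 lists and 2.20 and 1.18 in the EV lists. It is the minimum over the listed peaks that could be solved. Wilson intervals cover counting error only.

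The members and lists were chosen with earlier results of these data known. Genes described with values were the 6 with the highest and 3 with the lowest mean fold percentile, those in 1 list only, those with summits over 1000 bp from both ends or a neighbour at the peak, and the highest of each role. Other members were given values to complete each complex. The deposited labels pair replicate numbers across groups, which 1 count per library cannot check.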

Additional observations from a re-analysis of the deposited data

How the results depend on the processing

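The share of initiation factor genes with a peak in both E2F1 lists was 60.7% to 80.4% under 11 of 13 alternatives and moved under 2. It was 26.8% with peaks at or above the median score of their list, and 35.1% when that was joined with CpG-rich promoters, an alternative chosen after seeing the data. Both leave out weaker peaks by construction. The peak number with E2F1 against EV differed by 41 to 45 genes across the fits without one library, and by 18.5 at the stricter score. With the replicate block the difference was 43 genes and the exact sign-flip p was 0.5, the smallest that 2 pairs allow. The median percentile was 41.2 without E2F1 replicate 1 and 51.3 without replicate 2. All protein-coding genes with a peak in both lists gave 57.6 and 57.1. With pileup in place of fold, also chosen after seeing the data, it was 55.0 for the initiation factor genes, against 56.7. The median log2 ratio of folds, replicate 2 over 1, was 0.10, and as a difference of percentiles it reversed to −5.18. Of all protein-coding genes with a peak in both lists, 70.9% had the higher fold in replicate 2 (median log2 ratio 0.34). The share of promoters with an E2F word moved from 4.55% to 18.2% with 7-letter words. Percentiles of single genes moved by more than the spread between the lists in 47 of 190 alternatives. The 190 include those that leave out a replicate, which by construction cannot move by more than this spread. The count therefore understates how often the alternatives able to move did so. The filter at a −log10 p of 10 limits all counts to stronger sites.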
